A study of Homo sapiens with 15 samples.

Results

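10 genes that control the epithelial-mesenchymal transition (EMT) were followed across 3 sorted subpopulations of PEO1, a human line of ovarian cancer cells in long-standing culture. They were the EMT transcription factors SNAI1, SNAI2, TWIST1, TWIST2, ZEB1 and ZEB2 and the epithelial regulators GRHL2, OVOL1, ESRP1 and ESRP2, chosen by name and not by their values. Every probe set annotated to exactly 1 of these genes was used, which gave 19 probe sets for 9 genes, of 54675 probe sets on the array, which name 19775 genes. The single probe set that names ESRP2 also names a microRNA gene, so ESRP2 has no value here. Cells were grown in serum-containing medium, stained for the surface proteins CD90 and CD133 and sorted from the parental line into CD90+/CD133+, CD90+/CD133- and CD90-/CD133- fractions, with no other treatment. Each fraction had 5 arrays numbered as replicates 1 to 5, and all 15 came from this 1 cell line. The methods describe biological replicates for the CD90+/CD133- and CD90-/CD133- fractions, while nothing given says how those of the CD90+/CD133+ fraction arose. The p-values therefore measure only the spread between these samples that remains after fraction and replicate number are fitted.

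EMT is the process by which epithelial cells loosen their junctions and take on a migratory, fibroblast-like form. SNAIL, TWIST and ZEB proteins bind E-box motifs and are known as repressors of epithelial genes such as CDH1, which encodes E-cadherin. GRHL2 and OVOL proteins oppose ZEB1, and the RNA-binding proteins ESRP1 and ESRP2 keep mRNAs spliced in the epithelial way. In ovarian carcinoma both epithelial and mesenchymal genes are often expressed by the same cells.

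Values were linear probe-set intensities. They were set to at least 16, here called the floor, and compared on the log2 scale with limma, with the replicate number as a pair and Benjamini-Hochberg adjustment over 40004 probe sets, and a probe set was called at an adjusted p under 0.05. Group levels are geometric means of the 5 arrays, and each gene is described by its brightest probe set. The sort labels were checked first. THY1, which encodes CD90, lay between 728 and 2171 on CD90+/CD133+ arrays, between 795 and 1221 on CD90+/CD133- arrays and between 57.8 and 101 on CD90-/CD133- arrays. PROM1, which encodes CD133, lay between 429 and 1652 on CD90+/CD133+ arrays, between 21.5 and 156 on CD90+/CD133- arrays and between 9.32 and 44.1 on CD90-/CD133- arrays. Of 13 markers of ovarian carcinoma epithelium, 12 lay above the floor on every array and SOX17 did not. Their summed intensity was 33415 to 46963 in CD90+/CD133+ cells, 37302 to 49127 in CD90+/CD133- cells and 52687 to 66126 in CD90-/CD133- cells. Bright markers weigh most in this sum, and single markers went both ways. KRT8 read 2568 to 5626, 3622 to 5060 and 7822 to 10623 in that order. EPCAM read 5959 to 7695, 7046 to 7970 and 5310 to 6432. Among 12 fibroblast markers, COL3A1, LUM, PDGFRA and POSTN were at the floor on all arrays, and the sum was 494 to 684, 439 to 573 and 529 to 648 in the same order of fractions. Of 6 measured leukocyte markers PTPRC and LYZ were at the floor, and the sum was 197 to 291 in CD90+/CD133+ cells, 213 to 275 in CD90+/CD133- cells and 170 to 190 in CD90-/CD133- cells. Within it CD14 read 67.9 to 171, 92.3 to 148 and 43.4 to 71.5 in that order. Of 8 endothelial markers CDH5, KDR, TIE1 and EMCN were at the floor (sums of 197 to 224, 187 to 204 and 185 to 208), and none of 7 mesothelial markers was (2346 to 4245, 2832 to 4331 and 2104 to 3657). The GAPDH control probe sets at the 3′ end exceeded those at the 5′ end, a sign of RNA quality, by 0.01 to 0.12, 0.09 to 0.27 and 0.02 to 0.09 on the log2 scale, and those of ACTB by 1.03 to 2.76, 1.82 to 3.31 and 1.31 to 2.17. The part of these differences in the results below was not tested.

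Of the 19 probe sets, 11 rose above the floor on at least 1 array and were tested, and the other 8 belonged to ZEB1 and ZEB2. In CD90+/CD133+ against CD90-/CD133- cells, 2 of the 11 were higher, 4 lower and 5 not called, where 33.7% of all probe sets were called (15.2% higher and 18.5% lower). In CD90+/CD133- against CD90-/CD133- cells, 3 were higher, 2 lower and 6 not called, where 35.6% of all probe sets were called (18.0% higher and 17.6% lower). Both comparisons use the same CD90-/CD133- arrays. Between CD90+/CD133+ and CD90+/CD133- cells, none was higher, 2 were lower and 9 not called, where 8.86% of all probe sets were called. The split of that last figure, 3.40% higher and 5.46% lower, depends on the scaling: 1360 probe sets were higher and 2186 lower, against 1869 and 1615 after each array was centred on its median. With 11 probe sets, these counts describe the genes and say nothing of them as a group, so the genes are taken singly. The arrays of the groups did not overlap for 5 probe sets in the first comparison (16.1% of all probe sets), 2 in the second (15.6%) and 1 in the third (3.65%).

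**Figure D1:**
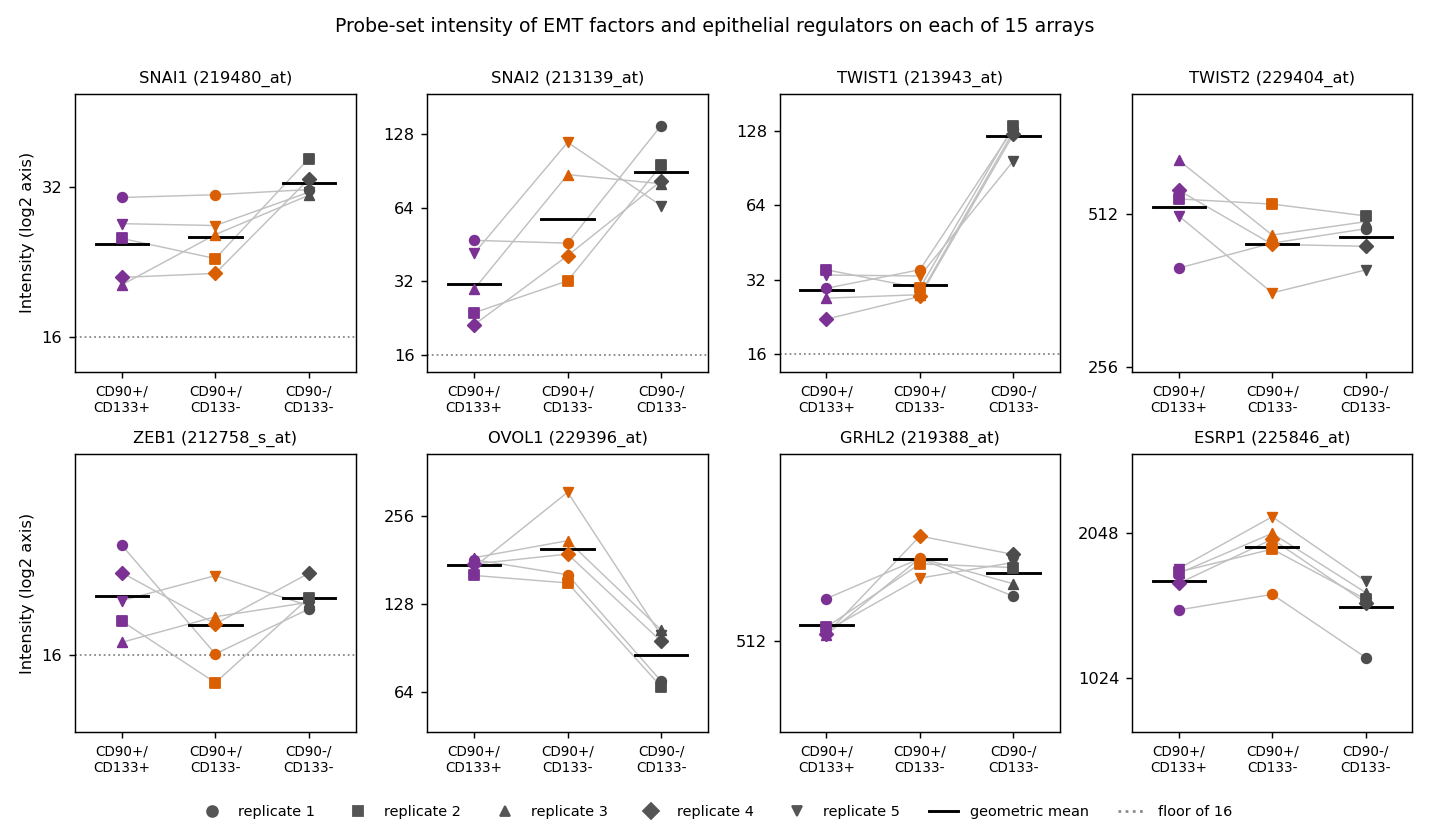
Intensity of the brightest probe set of 8 genes on each of 15 arrays, on a log2 axis whose range differs between panels. Points are arrays (symbol for the replicate number, grey lines joining equal numbers), bars are geometric means, and the dotted line is the floor of 16. TWIST1 stands far higher in CD90-/CD133- cells and OVOL1 far lower, while TWIST2 and ZEB1 overlap in all fractions.

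TWIST1, a basic helix-loop-helix repressor of CDH1, showed the largest difference among these genes. Its probe set read 29.6, 35.1, 27.0, 22.2 and 33.5 in replicates 1 to 5 of CD90+/CD133+ cells. It read 35.2, 29.6, 27.9, 27.4 and 33.2 in CD90+/CD133- cells. It read 131, 134, 127, 124 and 96.7 in CD90-/CD133- cells, so that every CD90+ array lay below every CD90-/CD133- array. The log2 fold change was -2.06 (SE 0.12, adjusted p = 7.72e-07) in CD90+/CD133+ cells and -1.99 (SE 0.12, adjusted p = 9.52e-07) in CD90+/CD133- cells, each against the CD90-/CD133- fraction (SE is the standard error of the fit), or 4.18-fold and 3.99-fold lower. In bulk RNA, fewer cells with TWIST1 and less TWIST1 RNA per cell cannot be told apart. CD90+/CD133+ and CD90+/CD133- cells overlapped, and their difference of -0.07 had a 95% interval of -0.33 to 0.20. The call was made in all 20 fits that left out an array or a replicate number. Because the CD90+ values lie not far above the floor, a floor of 64 gave -0.93 in both comparisons.

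TWIST2, the close paralogue of TWIST1, did not follow it. Its brighter probe set read 400.3, 547, 651, 569 and 507 in CD90+/CD133+ cells, 448, 534, 465, 445 and 358 in CD90+/CD133- cells and 478, 507, 494, 442 and 397 in CD90-/CD133- cells. The fractions overlapped throughout. Against CD90-/CD133- cells the log2 fold change was 0.19 (95% interval -0.03 to 0.42, adjusted p = 0.173) in CD90+/CD133+ cells and -0.05 (-0.27 to 0.17, adjusted p = 0.770) in CD90+/CD133- cells. Without CD90+/CD133+ replicate 1, the lowest array of its fraction, TWIST2 was called higher in CD90+/CD133+ cells at 0.30 (adjusted p = 0.0115) against CD90-/CD133- cells and at 0.35 (adjusted p = 0.0239) against CD90+/CD133- cells, and without all arrays of number 1 at 0.31 (adjusted p = 0.0189) and 0.34 (adjusted p = 0.0423). Its dimmer probe set lay between 19.1 and 41.4 on all arrays and was called in no comparison.

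SNAI2, which encodes the zinc-finger repressor SLUG, was the most variable of these genes within a fraction. It read 47.1, 23.8, 29.7, 21.2 and 41.7 in CD90+/CD133+ cells (n = 5, log2 SD 0.50). It read 45.8, 32.1, 87.6, 40.8 and 119 in CD90+/CD133- cells (log2 SD 0.79). It read 139, 95.5, 80.4, 82.5 and 65.3 in CD90-/CD133- cells (log2 SD 0.41). The CD90+/CD133+ arrays all lay below the CD90-/CD133- arrays, whereas the CD90+/CD133- arrays spread over both. SNAI2 was 2.87-fold lower in the CD90+/CD133+ than in the CD90-/CD133- fraction (log2 change -1.52, SE 0.32, adjusted p = 0.00352), a call lost with a floor of 64, where the change was -0.48 (adjusted p = 0.101). In CD90+/CD133- cells it did not pass (-0.64, 95% interval -1.35 to 0.06, adjusted p = 0.152), and 3 of 5 pairs were lower. That comparison rested on number 5, the pair with the highest CD90+/CD133- and the lowest CD90-/CD133- array. It was called at -0.91 (adjusted p = 0.0434) without CD90+/CD133- replicate 5, at -0.94 (adjusted p = 0.0303) without CD90-/CD133- replicate 5 and at -1.02 (adjusted p = 0.0295) without the number. Between the 2 CD90+ fractions the difference was -0.88 (95% interval -1.59 to -0.18, adjusted p = 0.112).

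SNAI1, which encodes the founding member of the same repressor family, was a dim probe set with a small difference. It read 30.5, 25.2, 20.4, 21.1 and 27.0 in CD90+/CD133+ cells, 30.9, 23.0, 25.7, 21.5 and 26.8 in CD90+/CD133- cells and 31.7, 36.6, 30.8, 33.2 and 31.3 in CD90-/CD133- cells. All 5 pairs were lower in both CD90+ fractions, yet the highest CD90+/CD133+ array (30.5) nearly touched the lowest CD90-/CD133- array (30.8). SNAI1 was 1.33-fold lower in CD90+/CD133+ cells (log2 change -0.41, adjusted p = 0.00893) and 1.29-fold lower in CD90+/CD133- cells (-0.36, adjusted p = 0.0161). The call in CD90+/CD133+ cells was lost without number 4 (-0.35, adjusted p = 0.0531). The CD90+/CD133- call was lost without CD90+/CD133- replicate 2 (adjusted p = 0.0524) or 4 (0.0520), CD90-/CD133- replicate 2 (0.0539) or 4 (0.0539) and numbers 2 (0.0932) and 4 (0.0883), and with only the 2 fractions in the fit (0.0547). The CD90+ fractions differed by -0.05 (95% interval -0.27 to 0.18).

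ZEB1 and ZEB2, zinc-finger repressors that mark a full EMT in many carcinomas, were at or near the floor. The brightest ZEB1 probe set read 23.0, 17.9, 16.7, 21.0 and 19.2 in CD90+/CD133+ cells, 16.1, 14.6, 18.2, 17.7 and 20.8 in CD90+/CD133- cells and 18.6, 19.3, 19.1, 21.0 and 18.8 in CD90-/CD133- cells. It was above the floor on 14 of 15 arrays and was called in no comparison. Its log2 fold change was 0.01 (95% interval -0.19 to 0.21) in CD90+/CD133+ cells and -0.13 (-0.33 to 0.07) in CD90+/CD133- cells, each against CD90-/CD133- cells, and 0.14 (-0.06 to 0.34) between the CD90+ fractions. The 3 other ZEB1 probe sets read 5 to 9.55 on every array, where 5 is the lowest deposited value. All 5 ZEB2 probe sets read 5 to 10.2. Values this low set no direction, and no fold change is given for them. ZEB1-AS1, a transcript that runs antisense from the ZEB1 promoter, lay between 16.1 and 24.2, 16.5 and 32.4, and 12.2 and 21.9 in the CD90+/CD133+, CD90+/CD133- and CD90-/CD133- fractions.

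**Figure D2:**
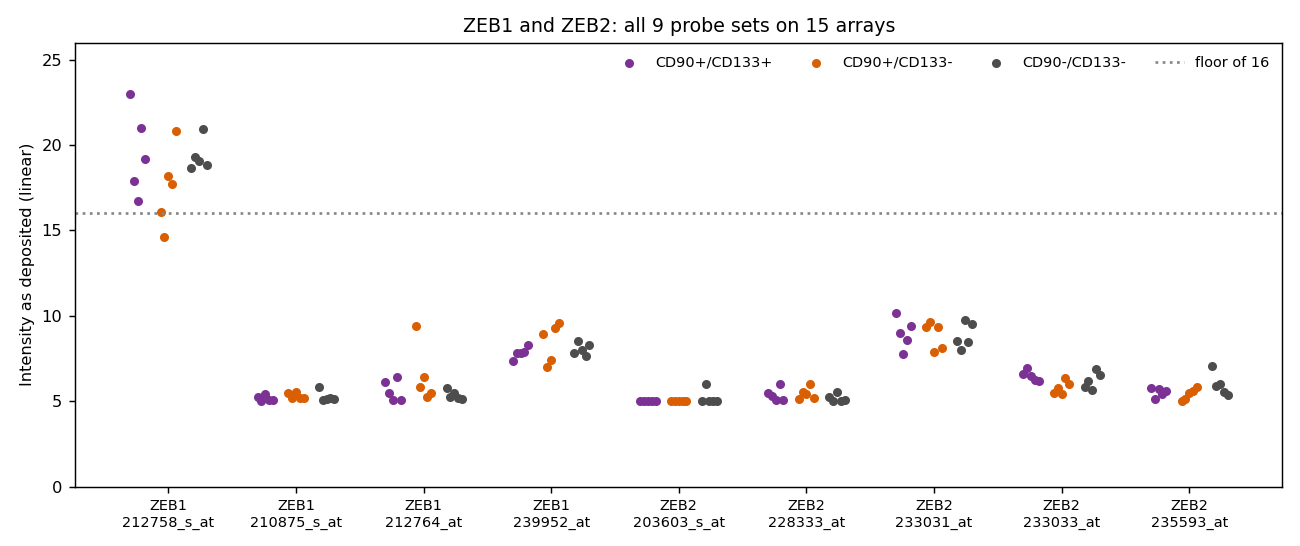
Deposited intensity, on a linear axis, of the 4 ZEB1 and 5 ZEB2 probe sets on 15 arrays, 5 per fraction, with the floor of 16 as a dotted line. Only 1 ZEB1 probe set rises above the floor, and it does so in all 3 fractions.

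ZEB1 and ZEB2 mRNAs are known targets of the miR-200 family, which they repress in turn. The mature sequences (RefSeq, GRCh38.p14) are shown 5′ to 3′ because their seeds, bases 2 to 8 in capitals, divide the family into a group of 3 and a group of 2 that differ by 1 base. The group of 3 is:
hsa-miR-200b-3p: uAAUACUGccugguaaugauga
hsa-miR-200c-3p: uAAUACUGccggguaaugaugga
hsa-miR-429: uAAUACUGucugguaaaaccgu
The group of 2 is:
hsa-miR-200a-3p: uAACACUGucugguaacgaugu
hsa-miR-141-3p: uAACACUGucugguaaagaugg
These arrays do not measure mature microRNAs. The host transcript MIR200CHG, from which miR-200c and miR-141 are cut, lay between 51.0 and 66.5 in CD90+/CD133+ cells, 53.1 and 71.0 in CD90+/CD133- cells and 63.1 and 70.7 in CD90-/CD133- cells, so the fractions overlapped.

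OVOL1, a zinc-finger repressor of ZEB1 and of other mesenchymal genes, moved the opposite way to TWIST1. It read 181, 160.0, 184, 175 and 171 in CD90+/CD133+ cells. It read 161, 151, 210.1, 189 and 307 in CD90+/CD133- cells, where replicate 5 stood apart upwards. It read 69.8, 66.8, 104, 95.5 and 100.04 in CD90-/CD133- cells, and no array of either CD90+ fraction overlapped these. OVOL1 was 2.03-fold higher in CD90+/CD133+ cells (log2 change 1.02, SE 0.13, adjusted p = 1.31e-04) and 2.30-fold higher in CD90+/CD133- cells (1.20, SE 0.13, adjusted p = 4.17e-05), and both calls were made in all 20 fits with arrays left out. The CD90+ fractions differed by -0.18 (95% interval -0.46 to 0.11). A second, dimmer probe set of OVOL1 lay between 29.2 and 43.3 on all arrays and did not follow, at 0.09 (adjusted p = 0.564) in CD90+/CD133+ cells and 0.20 (adjusted p = 0.155) in CD90+/CD133- cells. With the mean of both probe sets the changes were 0.56 and 0.70. OVOL2, its paralogue, was at 1183 in CD90+/CD133+ cells, 1112 in CD90+/CD133- cells and 1257 in CD90-/CD133- cells and was not called.

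GRHL2, a grainyhead transcription factor that activates CDH1 and claudin genes, varied little, with an SD of 0.08 to 0.09 on the log2 scale in each fraction (n = 5). It read 598, 538, 524, 525 and 531 in CD90+/CD133+ cells, 692, 678, 693, 751 and 644 in CD90+/CD133- cells and 603, 669, 631, 702 and 682 in CD90-/CD133- cells. The CD90+/CD133+ arrays were the lowest and overlapped with neither other fraction, while CD90+/CD133- and CD90-/CD133- arrays overlapped. GRHL2 was 1.21-fold lower in the CD90+/CD133+ than in the CD90-/CD133- fraction (log2 change -0.28, adjusted p = 0.00539) and 1.27-fold lower than in CD90+/CD133- cells (-0.35, adjusted p = 0.0115). Between CD90+/CD133- and CD90-/CD133- cells the difference was 0.07 (95% interval -0.06 to 0.21, adjusted p = 0.412). The difference between the CD90+ fractions lost its call without number 3 (-0.34, adjusted p = 0.0541) or 4 (-0.31, adjusted p = 0.0679) and by the methods' t-test (adjusted p = 0.0713).

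ESRP1, which encodes an RNA-binding protein that holds FGFR2, CD44 and ENAH in their epithelial splice forms, was highest in CD90+/CD133- cells. Its brighter probe set read 1416, 1698, 1688, 1609 and 1726 in CD90+/CD133+ cells, 1526, 1895, 2043, 1986 and 2212 in CD90+/CD133- cells and 1128, 1491, 1539, 1467 and 1625 in CD90-/CD133- cells. Arrays of replicate 1 were the lowest in all 3 fractions, and all 5 pairs had the same order although the fractions overlapped. ESRP1 was 1.33-fold higher in the CD90+/CD133- than in the CD90-/CD133- fraction (log2 change 0.41, SE 0.05, adjusted p = 7.54e-05). It was 1.13-fold higher in the CD90+/CD133+ than in the CD90-/CD133- fraction (0.17, adjusted p = 0.0173) and 1.18-fold lower in the CD90+/CD133+ than in the CD90+/CD133- fraction (-0.24, adjusted p = 0.0175). Its second probe set was called in CD90+/CD133- against CD90-/CD133- cells (0.38, adjusted p = 0.00935; 0.25 without number 5) and not for CD90+/CD133+ cells, where it was at 0.14 (adjusted p = 0.292) against CD90-/CD133- and at -0.23 (adjusted p = 0.150) against CD90+/CD133- cells.

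The 2 smaller differences of ESRP1 depended on the pairing and on single arrays. Without the replicate block their adjusted p was 0.325 and 0.326, and the methods' t-test, which is unpaired, gave 0.0632 for the larger difference, that of CD90+/CD133- from CD90-/CD133- cells. The call in CD90+/CD133+ against CD90-/CD133- cells was lost without CD90+/CD133+ replicate 2 (0.16, adjusted p = 0.0515) or number 2 (0.17, adjusted p = 0.0576). That against CD90+/CD133- cells was lost without CD90+/CD133+ replicate 3 (-0.23, adjusted p = 0.0525), 4 (-0.23, 0.0531) or 5 (-0.22, 0.0530), without CD90+/CD133- replicate 4 (-0.23, 0.0518) and without numbers 3 (-0.23, 0.0630), 4 (-0.22, 0.0907) and 5 (-0.21, 0.0506). The second probe set was called in CD90+/CD133+ against CD90-/CD133- cells only without CD90+/CD133- replicate 5 (0.14, adjusted p = 0.0416).

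**Figure D3:**
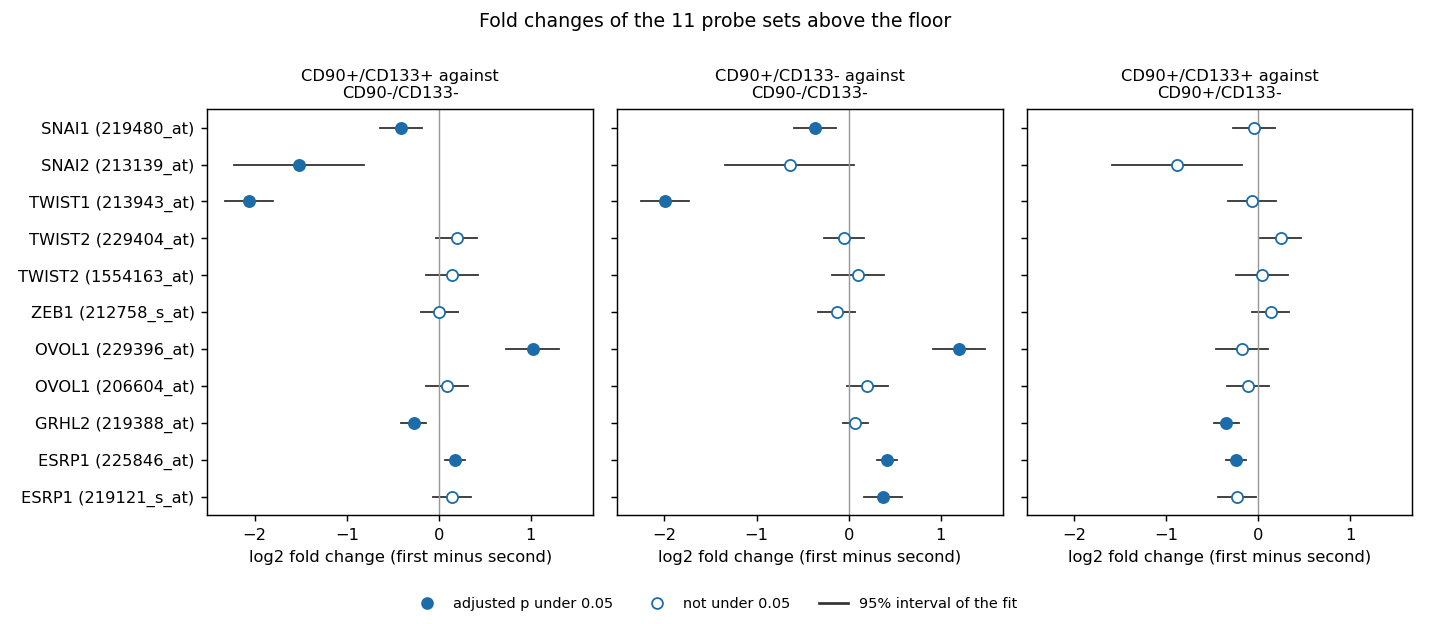
Log2 fold changes with 95% intervals of the 11 probe sets above the floor in 3 comparisons, filled where the adjusted p was under 0.05. Against CD90-/CD133- cells TWIST1, SNAI1 and, in CD90+/CD133+ cells, SNAI2 and GRHL2 are filled left of 0. The brighter probe sets of OVOL1 and ESRP1 are filled right of 0, as is the dimmer one of ESRP1 in CD90+/CD133- cells. Between the CD90+ fractions only GRHL2 and the brighter ESRP1 probe set are filled, left of 0.

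The order of levels across the fractions differed by gene. TWIST1 and SNAI1 were highest in CD90-/CD133- cells with no difference shown between the CD90+ fractions, and SNAI2 was lowest in CD90+/CD133+ cells, next in CD90+/CD133- cells and highest in CD90-/CD133- cells, with neither neighbouring step passing the test. OVOL1 was lowest in CD90-/CD133- cells by its brighter probe set, with the CD90+ fractions not shown to differ, while its dimmer probe set was called in no comparison. By its brighter probe set ESRP1 was highest in CD90+/CD133- cells, next in CD90+/CD133+ cells and lowest in CD90-/CD133- cells. Each step was called, but not without the replicate block and not by the second probe set. GRHL2 was lowest in CD90+/CD133+ cells with the other fractions not shown to differ. TWIST2 and ZEB1 were nominally highest in CD90+/CD133+ cells, next in CD90-/CD133- cells and lowest in CD90+/CD133- cells, with no difference called.

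Over the 15 arrays, TWIST1 and OVOL1 had a Pearson correlation of -0.88, TWIST1 and SNAI1 of 0.80 and OVOL1 and ESRP1 of 0.76. After each fraction's mean was removed these were -0.20, 0.63 and 0.60. The arrays share a cell line, the fractions and the replicate numbers, so these values only describe how the probe sets moved. Among 9987 or 9988 other genes with a mean log2 intensity of at least 6, those most like TWIST1 were NETO2, SPOCK1 and EPDR1, each at 0.98. Those most like OVOL1 were ZBED3 and SERTAD2 (0.97 each) and ATP6AP1 (0.96), and those most like ESRP1 were VPS13B (0.96), UBN2 and ARHGEF12 (0.95 each). SNAI2 was most like THUMPD1 (0.94), GOLT1B and SDAD1 (0.91 each), and SNAI1 like IFTAP and APOOL (0.90 each) and TGDS (0.89). GRHL2 was most like AKAP9 (0.89), ITPKC (0.88) and YWHAB (0.86), and TWIST2 like ENDOG (0.92), TMPRSS6 and CDK5 (0.90 each).

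Stretches of some chromosomes shifted together between the fractions, so each gene was set beside the 30 bright genes nearest to it in chromosome order. TWIST1, on chromosome 7, was at -2.06 in the CD90+/CD133+ fraction and -1.99 in the CD90+/CD133- fraction, each against CD90-/CD133- cells, beside neighbours with a median of -0.15 and -0.12. OVOL1, on chromosome 11, was at 1.02 and 1.20 beside neighbours at 0.05 and 0.03, and SNAI2, on chromosome 8, at -1.52 and -0.64 beside -0.09 and 0.01. SNAI1 lies on chromosome 20, where 292 bright genes had a median of -0.24 and -0.22, and its neighbours were at -0.20 and -0.13 beside its own -0.41 and -0.36. ZEB1 lies on chromosome 10, where 391 bright genes had a median of 0.45 and 0.43. The neighbours of ZEB1 were at 0.65 and 0.75, while its own probe set, near the floor, was at 0.01 and -0.13. ESRP1 was at 0.17 and 0.41 beside neighbours at -0.18 and -0.10, and GRHL2 at -0.28 and 0.07 beside 0.07 and 0.18. For TWIST2 the neighbours were at 0.16 and 0.13. These medians describe the position of each gene and were not tested.

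**Figure D4:**
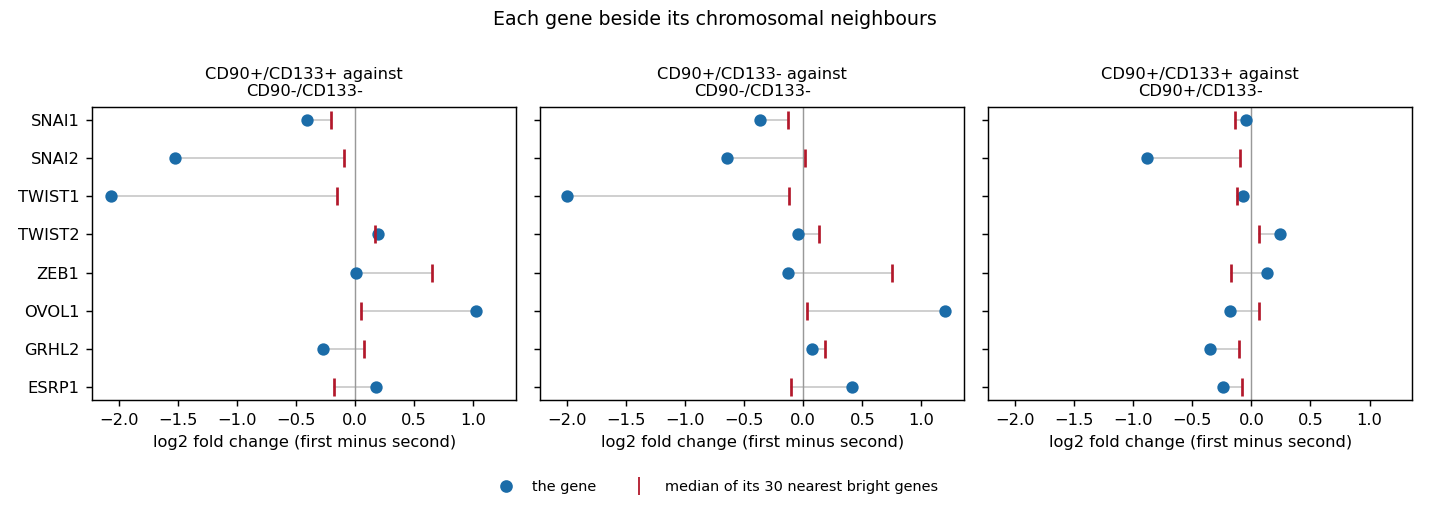
Log2 fold change of each gene (point) and the median of its 30 nearest bright genes on the chromosome (red bar) in 3 comparisons. TWIST1, SNAI2 and OVOL1 lie far from their neighbours against CD90-/CD133- cells, and the neighbours of ZEB1 lie to the right of it.

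The wider programme was read from 6 lists, by the brightest probe set of each gene. Over all 16393 genes the share called was 39.5% in CD90+/CD133+ against CD90-/CD133- cells (18.1% higher, 21.4% lower), 40.9% in CD90+/CD133- against CD90-/CD133- cells (18.7% higher, 22.3% lower) and 9.04% between the CD90+ fractions (4.67% higher, 4.37% lower). The median log2 fold change over all genes was within 0.02 of 0 in each. Bright probe sets were called more often. Of the 18737 with a mean log2 intensity of at least 6, fitted alone, 10238, 10707 and 3614 were called in the same order of comparisons. The lists were not matched for brightness. Called genes went both ways in every list against CD90-/CD133- cells.

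Of 24 measured other EMT transcription factors, 5 were higher and 7 lower in CD90+/CD133+ cells (median log2 fold change 0.05), and 6 were higher and 5 lower in CD90+/CD133- cells (median 0.12). TCF4, an E-box factor that drives EMT, was at 470.2 in CD90+/CD133+ cells, 576 in CD90+/CD133- cells and 1252 in CD90-/CD133- cells, and all 8 of its probe sets were lower in both CD90+ fractions. KLF8, a repressor of CDH1, was at the floor in CD90+/CD133+ cells and at 17.7 in CD90+/CD133- cells, against 41.9 in CD90-/CD133- cells. FOXC2, a forkhead factor tied to the mesenchymal state, was higher, at 68.5, 73.8 and 29.3. The probe sets of KLF8 and FOXC2 are dim, and with a floor of 64 neither kept its calls: FOXC2 was then at 0.19 (adjusted p = 0.130) in CD90+/CD133+ cells and 0.22 (adjusted p = 0.0782) in CD90+/CD133- cells, and KLF8 at -0.040 in both (adjusted p = 0.453 and 0.439). Inhibitors of helix-loop-helix factors went apart: ID2 was at 1906, 2031 and 893 and ID3 at 642, 661 and 1731 in the CD90+/CD133+, CD90+/CD133- and CD90-/CD133- fractions. Between the CD90+ fractions TEAD1, a partner of YAP1, was the only call (-0.32, adjusted p = 0.0482), made in 3 of the 20 fits with arrays left out.

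Of 23 other epithelial regulators above the floor, 5 were higher and 8 lower in CD90+/CD133+ cells, and 5 were higher and 7 lower in CD90+/CD133- cells (4 and 3 without number 4), with medians of -0.09 and -0.02. EHF, an epithelial ETS factor, was 6.74-fold higher in CD90+/CD133+ cells (1636 against 243 in CD90-/CD133- cells, log2 fold change 2.75, adjusted p = 1.17e-06) and 7.89-fold higher in CD90+/CD133- cells (1914, log2 fold change 2.98, adjusted p = 7.26e-07). KLF4 and GATA3, factors of epithelial differentiation, went the other way. KLF4 was at 217, 352 and 705 and GATA3 at 214, 313 and 598 in the CD90+/CD133+, CD90+/CD133- and CD90-/CD133- fractions. The ETS factor ELF3 was at 575, 815 and 1029, and RBM47, an RNA-binding protein of epithelia, was higher at 1522, 1688 and 1050. Without the replicate block the call of KLF4 in CD90+/CD133- cells (adjusted p = 0.0792) and that of ELF3 in CD90+/CD133+ cells (adjusted p = 0.0951) were lost. Between the CD90+ fractions 3 were lower and none higher: GATA3 (-0.55), ELF3 (-0.50) and the ETS factor ELF1 (-0.37), called in 17, 10 and 5 of 20 fits with arrays left out. All 3 of these calls were lost without the replicate block (adjusted p = 0.222, 0.540 and 0.214).

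Of 37 epithelial junction and surface genes, 10 were higher and 12 lower in CD90+/CD133+ cells (median -0.01), and 13 were higher and 13 lower in CD90+/CD133- cells (median 0.13). CLDN3 and CXADR, tight-junction proteins, were higher, with CLDN3 at 822, 591 and 242 and CXADR at 542, 543 and 261 in the CD90+/CD133+, CD90+/CD133- and CD90-/CD133- fractions. CLDN4 was lower at 459, 408 and 805, as were the keratin KRT8 at 4407, 4537 and 8951, the cornified-envelope linker PPL at 286, 340.0 and 608 and the motor protein MYO5B at 574, 693 and 1220. CDH1, singled out after its values were seen, was at 850.1, 1023 and 919 and was called in no comparison, and EPCAM, named likewise, was 0.27 and 0.33 higher on the log2 scale (adjusted p = 0.0104 and 0.00306). Between the CD90+ fractions 2 were higher (AP1M2 and CRB3) and 4 lower (TJP1, DSP, OCLN and MYO5B). TJP1, a scaffold of tight junctions, was at 2505 in CD90+/CD133+ cells and 3146 in CD90+/CD133- cells (-0.33, adjusted p = 0.00648) and was called in all 20 fits with arrays left out but not without the replicate block (adjusted p = 0.123), whereas AP1M2 was called in 9, CRB3 in 6 and DSP in 3.

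Of 36 mesenchymal genes above the floor, 9 were higher and 13 lower in CD90+/CD133+ cells, and 7 were higher and 14 lower in CD90+/CD133- cells, with medians of -0.05 and -0.07. The cadherin CDH11 was at the floor on all arrays of both CD90+ fractions and at 651 in CD90-/CD133- cells, at least 40.7-fold lower in each. FBN1, which encodes fibrillin, was at 93.6, 101 and 1708, the matrix protein TGFBI at 93.2, 144 and 2971 and the fibroblast protease FAP at 36.5, 35.4 and 144 in the CD90+/CD133+, CD90+/CD133- and CD90-/CD133- fractions. The classical markers CDH2 and VIM, singled out after their values were seen, did not share this pattern. CDH2, which encodes N-cadherin, was at 99.6, 80.5 and 57.9 and was called in CD90+/CD133+ cells (0.78, adjusted p = 0.00458) and not in CD90+/CD133- cells (0.48, adjusted p = 0.0520), with a difference between those fractions of 0.31 that was not called. VIM, which encodes vimentin, was at 91.8, 102 and 72.3 and was called in CD90+/CD133- cells (0.49, adjusted p = 0.0267, and in 11 of 20 fits with arrays left out) and not in CD90+/CD133+ cells (0.34, adjusted p = 0.111), with a difference of -0.15 between them that was not called. The VIM call was lost without the replicate block (adjusted p = 0.217), with only the 2 fractions in the fit (0.105) and by the methods' t-test (0.339). Between the CD90+ fractions NT5E (0.69) and COL1A1 (0.38) were higher and were called in 11 and 13 of 20 fits with arrays left out, and other probe sets of COL1A1 were not called. With the mean of its probe sets NT5E was at 0.41 (adjusted p = 0.0810) and not called. Without the replicate block neither gene was called (adjusted p = 0.136 for NT5E and 0.209 for COL1A1).

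Of 36 inducers and signal carriers of EMT, 11 were higher and 10 lower in CD90+/CD133+ cells, and 12 were higher and 7 lower in CD90+/CD133- cells, with medians of 0.02 and 0.09. The transforming growth factor receptor TGFBR2 was at 779, 724 and 192 by its brighter probe set, while its dim one was lower by 0.44 and 0.38 on the log2 scale. The ligand BMP4 was at 271, 239 and 56.7, the cytokine IL6 at 419, 485 and 121 (without the replicate block not called, adjusted p = 0.340 and 0.264) and EPAS1, the hypoxia factor HIF-2α, at 229, 295 and 49.0 in the CD90+/CD133+, CD90+/CD133- and CD90-/CD133- fractions. SMAD4, which carries signals of both TGF-β and BMP receptors, was lower at 179, 256 and 484. It was also lower in the CD90+/CD133+ than in the CD90+/CD133- fraction (-0.51, adjusted p = 0.00894, called in all 20 fits with arrays left out), where 1 gene was higher and 7 lower in all. That SMAD4 call was lost with the mean of its probe sets (-0.13, adjusted p = 0.198), with only the 2 fractions in the fit (adjusted p = 0.0685) and by the methods' t-test (adjusted p = 0.129). The kinase ILK (0.41), GSK3B, which marks SNAIL for degradation (-0.42), and the Notch ligand JAG1 (-0.39) were called there too, in 9, 9 and 5 of those fits.

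Of 23 ESRP splicing targets and partners, 7 were higher and 9 lower in CD90+/CD133+ cells, and 11 were higher and 8 lower in CD90+/CD133- cells, with medians of -0.01 and 0.05. Among ESRP targets, FGFR2 was at 487, 468 and 263 and ENAH at 726, 902 and 385 in the CD90+/CD133+, CD90+/CD133- and CD90-/CD133- fractions. The splicing factor RBM24 was at 62.0, 66.9 and 18.5, with calls lost at a floor of 64 (0.27, adjusted p = 0.336, in CD90+/CD133+ cells and 0.30, adjusted p = 0.278, in CD90+/CD133- cells). MBNL3 was lower at 184, 225 and 315. GRHL1, a grainyhead factor whose transcript is also an ESRP target, was called in CD90+/CD133- cells (0.56, adjusted p = 0.00227) and not in CD90+/CD133+ cells (0.22, adjusted p = 0.163). Between the CD90+ fractions SRSF1 (-0.27) was the only call, and with the mean of its probe sets it was at -0.084 (adjusted p = 0.193) and not called. Gene levels say nothing about which splice form was made.

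**Figure D5:**
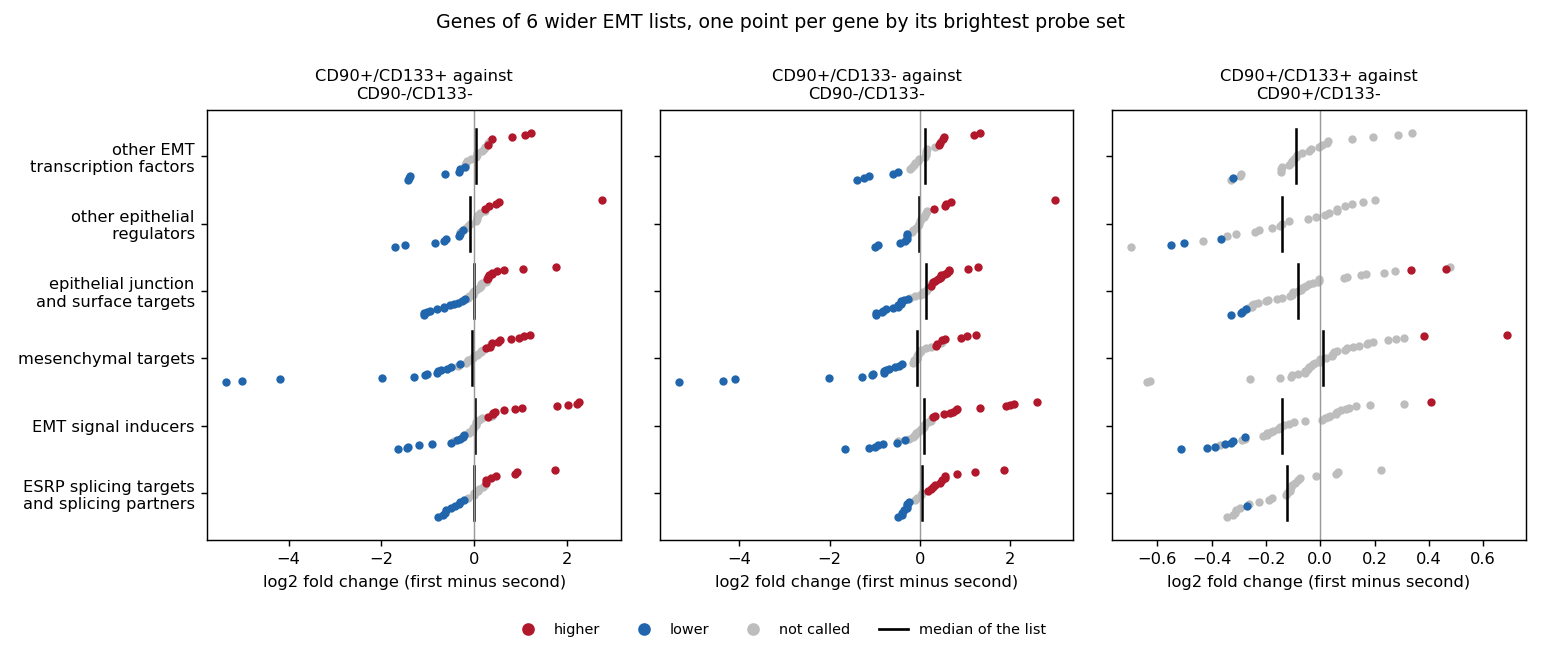
Log2 fold changes of the genes in 6 lists (1 point per gene, red if higher, blue if lower, grey if not called; black bar, list median) in 3 comparisons, the third on a narrower axis. Points spread on both sides of 0 in every list. In the comparisons against CD90-/CD133- cells, CDH11 (at the floor in both CD90+ fractions), TGFBI and FBN1 lie farthest to the left.

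Because SNAIL, TWIST and ZEB proteins bind E-boxes, promoter windows (250 bases before to 50 after a gene start, RefSeq, GRCh38.p14) were searched for CAGGTG, which reads CACCTG on the other strand. Of 40 listed junction and surface genes, 20 had a window, and 15 of these held the motif (75%). So did 3 of 27 mesenchymal genes (11.1%) and 24.1% of 27305 genes. Both lists were drawn up as targets in EMT, so these shares depend on that choice and are no independent result. Genes can have several windows, and by window the shares were 58.6%, 10.8% and 20.6%. Of the 15 with the motif 7 were higher, 3 lower and 5 not called in CD90+/CD133+ cells, and 8 higher, 4 lower and 3 not called in CD90+/CD133- cells. Of the 5 without it none was higher, 2 were lower and 3 not called in either. Over all genes, with or without the motif, 18.1% were higher and 21.4% lower in CD90+/CD133+ cells. In CD90+/CD133- cells these shares were 18.7% and 22.3%. The shares among all genes with the motif were not computed, and a link between motif and direction was not tested. A match describes the letters of the window and is not a site. Matches are printed 5′ to 3′ along the gene's strand, with the motif in capitals, for the junction genes called between the CD90+ fractions and for CLDN3. CRB3 held 5 matches, OCLN, MYO5B and AP1M2 3 each, DSP 2 and CLDN3 and TJP1 1 each, and 1 per gene is shown.
CLDN3, chr7:73770221-73770243 (-): agccacaggCAGGTGcaggcgca
TJP1, chr15:29969123-29969146 (-): gccggcgcgCAGGTGgcccggcct
OCLN, chr5:69492505-69492528 (+): tccgagtttCAGGTGaattggtca
MYO5B, chr18:50195301-50195324 (-): gcggcagggCAGGTGcgggcgccg
CRB3, chr19:6464034-6464057 (+): ctcgcaatgCAGGTGtaaggtccc
AP1M2, chr19:10587355-10587378 (-): agcgctgctCACCTGgccgcctcc
DSP, chr6:7541484-7541507 (+): cggcgggcgCAGGTGgggaggggc
CLDN3, TJP1 and OCLN were higher in both CD90+ fractions than in CD90-/CD133- cells, while MYO5B was lower in both. Of the EMT genes themselves TWIST2, ZEB1 and ZEB2 had a window, and ZEB1 held the motif in 2 of its windows, with 4 matches, of which 1 per window is shown.
ZEB1, chr10:31318351-31318374 (+): aggtgacagCAGGTGagggccggg
ZEB1, chr10:31319122-31319145 (+): gtcgtaaacCAGGTGcggtgggga
The other listed genes and CDH1 were not searched.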

How the data were processed

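PEO1 cells were sorted by FACS on CD90 and CD133, and their RNA was hybridised to Affymetrix U133 Plus 2.0 arrays (15 arrays, 5 per fraction). Each probe set has a linear intensity per array in the deposited table, which the authors normalized between arrays by a cross-correlation method. The lowest deposited value is 5 on every array. How probes were summarised is not given in the sources used here. Array medians lay between 29.4 and 32.4, and 32.7 to 34.5% of values were under 16. The number of arrays, 5 per fraction, limits the precision. No 2 arrays held identical values.

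Intensities were set to at least 16 and log2-transformed, and 14609 probe sets that never exceeded this floor were dropped. The other 40004 entered 1 limma fit of all 15 arrays (limma 3.58.1, R 4.3.3, functions lmFit and eBayes, 2-sided tests, fraction and replicate number as terms, 8 residual degrees of freedom), with Benjamini-Hochberg adjustment in each comparison and a threshold of 0.05. The step was tested on simulated data. Probe sets were named from GEO's platform annotation: 41097 had 1 gene, 1801 several and 11777 none listed, and 62 controls were left out. For 41037 of the probe sets with 1 gene, the gene identifier was found in RefSeq GRCh38.p14.

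Replicate numbers were taken as pairs because the labels give each number a code shared by its 3 fractions (numbers 4 and 5 share one), although the design text speaks of triplicates. Deviations from the fraction means correlated at 0.12 to 0.76 in 15 pairs of arrays with the same number, all over 0.1. In 60 pairs with different numbers they correlated at -0.61 to 0.27, with 9 over 0.1. The pairs of number 3 (0.12, 0.15 and 0.24) lay within that second range.

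The genes, lists and tests were chosen with earlier results of these data known. Named genes are all listed EMT genes, up to 4 genes per list and comparison with the largest change among those called, and the 3 genes most correlated with each EMT gene. CDH1, EPCAM, VIM, CDH2, OVOL2 and the genes given beside a small count were named after their values were seen. Alternatives covered scaling, floor, filter, block, arrays in the fit, variance prior, unit, test, fold threshold and arrays left out. The methods' t-test is an unpaired test on the same values, of a kind the methods name for the study in general. For the arrays themselves the methods name no test and use a 1.5-fold cutoff between fraction averages.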

Additional observations from a re-analysis of the deposited data

Results flagged for a closer look

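In 33 sets of 5 arrays (11 probe sets in 3 fractions), 3 held an array far from the other 4 by Dixon's test, which flags about 1 set in 20 by chance. The TWIST1 probe set read 96.7 in CD90-/CD133- replicate 5, below 124 to 134 in the other 4 arrays and still above every CD90+ array. GRHL2 read 598 in CD90+/CD133+ replicate 1, above 524 to 538 in the others. The brighter ESRP1 probe set read 1128 in CD90-/CD133- replicate 1, below 1467 to 1625 in the others.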

How the results depend on the processing

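Among the 11 tested EMT probe sets, 6 were called in CD90+/CD133+ against CD90-/CD133- cells, 5 in CD90+/CD133- against CD90-/CD133- cells and 2 between the CD90+ fractions, and over all probe sets 13471, 14242 and 3546. Without the replicate block these were 5, 5 and 1, and 8306, 9276 and 503. By the methods' t-test they were 5, 3 and 0, and 7197, 6827 and 29. By a 1.5-fold difference between linear means with no test they were 3, 2 and 1, and 5483, 5812 and 676. Keeping a mean log2 of at least 6, which leaves 5 of the EMT probe sets, gave 3 and 3 against CD90-/CD133- cells. With only the 2 compared fractions in the blocked fit, 3 were called in CD90+/CD133- against CD90-/CD133- cells and 1 between the CD90+ fractions, with 849 over all probe sets there, where the label code as block gave 1633 and no filter on dim probe sets 1623. Quantile normalization and centring on the median left the counts of EMT probe sets at 6, 5 and 2. The split over all probe sets between the CD90+ fractions was 1668 higher and 1732 lower after quantile normalization. With the mean of a gene's probe sets TWIST2 was at 0.025 in CD90+/CD133- against CD90-/CD133- cells, the reverse of its sign above, and was not called.

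In 20 fits that left out an array or a replicate number, 0 to 3 EMT probe sets and 418 to 3500 of all were called between the CD90+ fractions. These log2 fold changes, none called, changed sign: in CD90+/CD133+ against CD90-/CD133- cells ZEB1 (-0.079 to 0.062); in CD90+/CD133- against CD90-/CD133- cells TWIST2 (-0.093 to 0.014, dimmer probe set -0.017 to 0.20) and CDH1 (-0.0090 to 0.22); and between the CD90+ fractions TWIST1 (-0.15 to 0.013), SNAI1 (-0.11 to 0.025), the dimmer TWIST2 probe set (-0.051 to 0.13) and EPCAM (-0.10 to 0.0078). TWIST1 and the brighter OVOL1 probe set were called against CD90-/CD133- cells in each of these fits. The dimmer OVOL1 probe set was called in none of them. The cause of these changes was not tested. SNAI1 and ZEB1 lie near the floor, which limits the size of any difference that can be measured there.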
